A study of Homo sapiens with 6 samples.

Results

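The loci described here are the annotated copies of the small RNAs U1, U2, U5, U6, U6atac, U7, Y, 7SK and 7SL, true genes and pseudogenes together. They were chosen by symbol, starting with RNU, RNY, RN7SK or RN7SL, and selected on their measured level, at least 1 TPM (a level scaled for gene length and for the library total) in at least 3 of 6 libraries. Of 3074 loci with such a symbol, 266 passed (the members), among 16554 genes that passed the same threshold in a table of 57445. The level that chose them is therefore no finding, and a locus high in one condition alone could enter through that condition. 2 members did: RNU7-3P was past the threshold in the 3 shCTL libraries and in no shRor1 library, and RN7SL661P in the 3 shRor1 libraries (1.06, 1.90 and 1.04 TPM) and in no shCTL library (0.55, 0.95 and 0.59 TPM). Both are among the members below that did not overlap between the groups, and among those with an unadjusted p below 0.05 in limma. At the threshold itself, RN7SL298P was the member nearest to it, with only 3 libraries at 1.0 TPM or more, and RN7SL206P stayed out with 0.99 TPM in the library that decided.

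The cells were MDA-MB231, a human triple-negative breast cancer line, and the design asks what lowering Ror1, a receptor tyrosine kinase-like Wnt receptor, does to their transcriptome. Both groups carried a stably integrated pGIPZ lentiviral vector, were selected with 2 µg/ml puromycin and grew in RPMI medium with 10% fetal serum. The shCTL group (3 libraries) carried a non-silencing shRNA, which one label calls an empty vector and whose column header adds the word DMSO, and the shRor1 group (3 libraries) carried an shRNA against ROR1. The RNA is labelled polyA, whereas the kit named in the methods prepares total RNA, and which of both holds for these libraries was not tested. Within a group, libraries are called the first, the second and the third after the order of the table columns. Nothing states that they came from separate cultures, so p-values measure the spread between these libraries.

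ROR1 itself was measured at 15.4, 13.5 and 20.6 TPM (shCTL) and 9.34, 11.9 and 14.9 TPM (shRor1), with overlap of the groups (log2 fold change -0.43, SE 0.20, adjusted p = 0.984 in limma). These are mRNA levels only. The paper reports a stable knockdown, shown by western blot of the Ror1 protein. The line's markers VIM, CD44, EGFR and AXL were high in all libraries, ESR1 and PGR stayed at or below 0.21 TPM, and EPCAM, which a mesenchymal line should hold low, was at 12.6 to 15.8 TPM, with ERBB2 at 26.6 to 34.9, GATA3 at 3.83 to 4.69 and CDH1 at 0.80 to 1.47 TPM. The leukocyte marker PTPRC and the hepatocyte marker ALB were at or below 0.39 TPM, and PECAM1 was not analysed here.

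These RNAs work as the cores of RNA-protein particles. U1 pairs with the 5' splice site and U2 with the branch site of an intron. U4 holds U6 inactive until it is released, U6 then forms the catalytic core of the spliceosome together with U2 and U5, U6atac takes the place of U6 in the minor spliceosome, and U7 guides the cut at histone mRNA ends. 7SK holds the elongation factor P-TEFb in an inactive complex, 7SL is the scaffold of the signal recognition particle that docks ribosomes at the endoplasmic reticulum, and Y RNAs bind the Ro60 protein. None of them carries a poly(A) tail, and each has left many pseudogene copies. The primate Alu repeats also descend from 7SL, by loss of the middle of that RNA.

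The sequences of 3 genes whose levels set 1 library apart were read from the GRCh37 genome at the coordinates of GENCODE 44 mapped to that build. RNU1-1 lies at chr1:16840617-16840780 on the minus strand, and its capitals mark the stretch that pairs with the 5' splice site. RNU2-2P lies at chr11:62609091-62609281 on the minus strand, in an exon of WDR74, and its capitals mark the branch site pairing bases. RN7SK lies at chr6:52860418-52860748 on the plus strand, outside other genes, and its first 300 of 331 bases are shown.
RNU1-1: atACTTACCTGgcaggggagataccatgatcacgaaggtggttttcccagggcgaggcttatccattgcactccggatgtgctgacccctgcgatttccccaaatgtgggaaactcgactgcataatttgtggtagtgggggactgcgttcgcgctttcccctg
RNU2-2P: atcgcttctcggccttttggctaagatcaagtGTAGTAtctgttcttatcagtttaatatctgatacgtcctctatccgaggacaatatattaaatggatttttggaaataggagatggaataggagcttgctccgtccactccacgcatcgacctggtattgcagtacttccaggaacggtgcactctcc
RN7SK: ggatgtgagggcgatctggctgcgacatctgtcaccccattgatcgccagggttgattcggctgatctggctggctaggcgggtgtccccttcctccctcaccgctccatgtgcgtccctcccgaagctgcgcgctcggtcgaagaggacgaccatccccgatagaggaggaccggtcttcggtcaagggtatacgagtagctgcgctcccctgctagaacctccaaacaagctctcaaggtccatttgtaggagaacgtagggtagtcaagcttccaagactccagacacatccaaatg

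By number, 209 of the 266 members were 7SL loci, taken from 847 annotated ones. U6 gave 24 members of 1321 loci, U1 11 of 120, 7SK and U7 6 each (of 292 and 179), U2 4 of 70, Y RNA 3 of 56, U5 2 of 31 and U6atac 1 of 42. No locus of U4, U4atac, U11 or U12 passed, but only 4 loci of U11 and 1 of U12 were matched, without the genes RNU11 and RNU12. Of all 3074 loci, 1806 were listed at 0 in every library.

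Most members stood at low levels. The median mean level was 2.37 TPM, 255 of 266 members averaged under 10 TPM, and 159 were past 1 TPM in all 6 libraries. Together the members made up 0.114 to 0.228% of all TPM in shCTL and 0.11 to 0.198% in shRor1. Within that, 7SL loci held 68.6 to 78.3% in shCTL and 76.3 to 87.1% in shRor1, and the single gene RN7SL2 held 21.6 to 55.6% across the 6 libraries.

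Of 31 true genes looked for by symbol, 27 were matched, 14 were members and 13 were not. The members were RNU1-1, RNU1-2, RNU1-3, RNU1-4, RNU2-2P, RNU5A-1, RNU5E-1, RNU6-1, RNU6-2, RNU6-9, RNU6ATAC, RN7SK, RN7SL2 and RN7SL3. None of the 4 Y RNA genes passed: RNY1, RNY3, RNY4 and RNY5 reached at most 1.46, 1.86, 1.41 and 0.60 TPM, each in 1 library. RNU7-1, the U7 gene, was above 0.2 TPM only in the second shRor1 library (1.62 TPM), while 6 of its pseudogene copies were members. RNU4-1 and RNU4-2 failed the threshold with a single high library, the second shCTL one, at 7.45 and 12.8 TPM. RNU4ATAC, RNU5B-1, RNU5D-1, RNU5F-1, RNU6-7 and RNU6-8 were the other matched genes outside, and RNU2-1, RNU11, RNU12 and RN7SL1 were not analysed here.

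**Figure D1:**
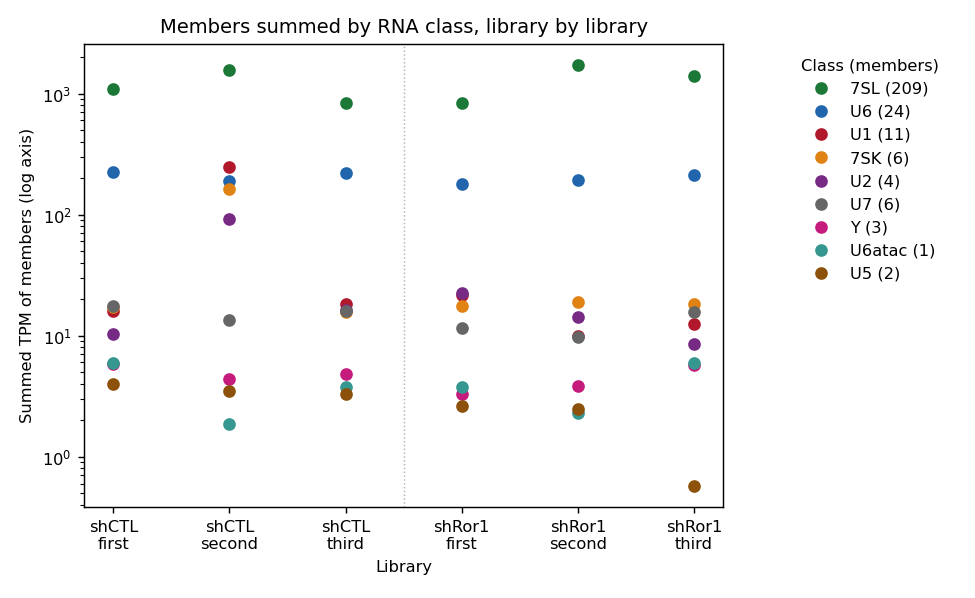
Summed TPM of the members of each RNA class (y axis, logarithmic) in each of the 6 libraries (x axis), 1 point per class and library, with the number of members in the key. The second shCTL library stands out for U1 (248 TPM), 7SK (164) and U2 (91.9), whereas 7SL and U6 show no such step there.

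U1, the RNA that recognises the 5' splice site, was the class with the widest spread between libraries. Its 11 members summed to 16.1, 248 and 18.2 TPM (shCTL) and 21.8, 9.94 and 12.5 TPM (shRor1). Only the second shCTL library was high, 11.4 times the next highest one, and the other shCTL libraries lay within the range of shRor1. RNU1-1, RNU1-2, RNU1-3, RNU1-4, RNU1-27P and RNU1-28P have the same sequence and the same values, 1.66, 40.4 and 1.68 TPM in shCTL and 2.25, 0.64 and 1.14 TPM in shRor1. They are thus 1 measurement and not 6. The log2 fold change of RNU1-1 was -1.56 (SE 0.99, adjusted p = 0.984, limma) and -0.25 without the second shCTL library, and a copy outside the chosen symbols, RNVU1-18, carried the identical values.

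The remaining 5 U1 members, among them RNU1-72P and RNU1-60P, summed to little and did not share the high library. RNU1-68P and RNU1-143P are also identical in sequence and in values, between 0.37 and 1.35 TPM. In all, 15 members fell into 3 such sets of equal values, so that 266 members gave 254 distinct profiles.

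Among its members, U2, which pairs with the branch site, behaved in a like manner through 1 gene. The 4 members summed to 10.2, 91.9 and 16.3 TPM (shCTL) and 22.7, 14.3 and 8.58 TPM (shRor1). Over all 70 U2 loci the sums were 17.6, 122 and 22.6 TPM (shCTL) and 28.8, 18.7 and 15.45 TPM (shRor1). Loci outside the members thus also held more in the second shCTL library. RNU2-2P was at 2.69, 81.7 and 7.11 TPM (shCTL) and 14.5, 4.06 and 3.44 TPM (shRor1). The second shCTL library was again the high one, and the next highest was the first shRor1 library. The fitted log2 fold change was -0.94 (SE 1.07, adjusted p = 0.984), and without the second shCTL library it was 0.36. WDR74, whose exon holds RNU2-2P on the same strand, averaged 79.0 TPM with a log2 fold change of -0.14. The copies RNU2-27P, RNU2-24P and RNU2-65P ranged from 0.83 to 5.80 TPM. Their identity to RNU2-2P, over the whole alignment with gaps counted, was 55.0, 54.5 and 63.4%. They are 142, 143 and 185 bases long against 191, and missing bases lower this identity.

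RN7SK, the scaffold that holds P-TEFb, was at 7.19, 156 and 8.85 TPM (shCTL) and 9.11, 11.02 and 10.51 TPM (shRor1). The 3 shRor1 libraries lay close together (10.2 ± 0.99, SD, n = 3), and each was above both other shCTL libraries. Its log2 fold change was -1.06 (SE 1.01, adjusted p = 0.984), and turned to 0.32 when the second shCTL library was left out. The other 5 members of the class, RN7SKP11, RN7SKP16, RN7SKP173, RN7SKP181 and RN7SKP287, were between 0.57 and 3.55 TPM in every library and did not stand apart there.

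The ratio of the group means, shRor1 to shCTL, was 0.157 for the U1 sum, 0.385 for U2 and 0.278 for 7SK. Without the second shCTL library it was 0.859, 1.15 and 1.11. Across all 16554 genes, 20 were over 4 times higher in that library than in each of the others, and 8 of them were members. These were RN7SK, RNU2-2P and the 6 loci with the RNU1-1 sequence, which count as 1 measurement and which RNVU1-18 repeats among the other 12. In the other libraries this count was 0 or 1, with no member. Outside the members, the 17 genes of 5S ribosomal RNA summed to 116 TPM there against at most 14.4 elsewhere, the 5.8S copy RNA5-8SP6 reached 1594 TPM against at most 154, and SNORD3A, the U3 RNA of ribosome maturation, 73.9 against at most 14.9. The highest of the 20 genes there were CTD-2328D6.1 (9014 TPM against at most 1010) and ENSG00000225840 (6430 against at most 741), both annotated as pseudogenes. Next came AP000318.1 (2699 against at most 384) and AC079949.1 (1993 against at most 101), annotated as miRNA genes. Protein-coding genes held 90.9% of TPM in the second shCTL library and 92.7 to 93.2% in the others. The part of RNA composition or library preparation in these values was not tested.

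**Figure D2:**
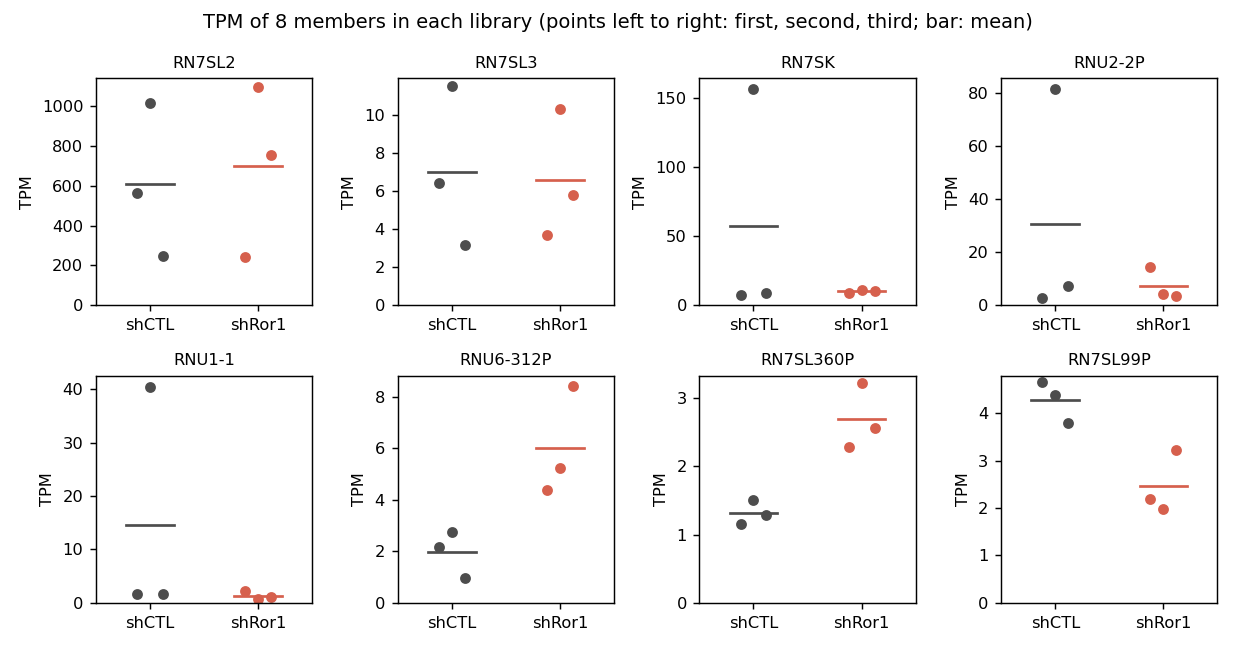
TPM (y axes, linear from 0) of 8 members, 1 panel each, with 1 point per library in column order and a bar at the group mean. In RN7SK, RNU2-2P and RNU1-1 the second shCTL point lies far above the rest, in RN7SL2 and RN7SL3 the spread is wide in both groups, and in RNU6-312P, RN7SL360P and RN7SL99P the groups do not overlap.

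U6, part of the catalytic core, gave the steadiest sum of the larger classes and the least steady single loci. The 24 members summed to 226, 188 and 220 TPM (shCTL) and 177, 193 and 214 TPM (shRor1), a range of 1.28-fold. The groups overlapped, and the second shCTL library was not high. 7 loci share the RNU6-1 sequence (RNU6-1, RNU6-2, RNU6-3P, RNU6-4P, RNU6-5P, RNU6-6P and RNU6-9), and each stood at 15.7, 22.8 and 0 TPM (shCTL) and 21.1, 20.8 and 25.0 TPM (shRor1). RNU6-36P, 1 base apart, was at 94.8, 0 and 194 TPM (shCTL) and 0, 20.8 and 0 TPM (shRor1). In the third shCTL library, where RNU6-36P was highest, the 7 loci were at 0, and in the first shCTL library they summed to 110 TPM beside its 94.8 TPM.

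These 2 patterns gave the largest fold changes of all members in either direction, 1.66 for RNU6-1 (SE 1.06) and -3.25 for RNU6-36P (SE 2.05), and for both the adjusted p was 0.984. Without the third shCTL library RNU6-1 fell to 0.22 and RNU6-36P was at -1.81, and RNU6-36P ran to -4.73 without the second shRor1 library and to -5.61 without the second shCTL library. RNU6-1 was at 2.51 without that shCTL library. RNU6-7 and RNU6-8, which were not members, were at 12.2 TPM each in the first shRor1 library and at 0 in all others. Summed, the 10 loci came to 205, 159 and 194 TPM in shCTL (186 ± 23.8, SD, n = 3) and to 172, 167 and 175 TPM in shRor1 (171 ± 4.3). The second shCTL library lay below all shRor1 libraries and the other two above them. RSEM, the program behind these levels, divides a read that matches several loci among them, and a short read need not cover the base that differs. The part of read sharing in these U6 values was not tested.

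**Figure D3:**
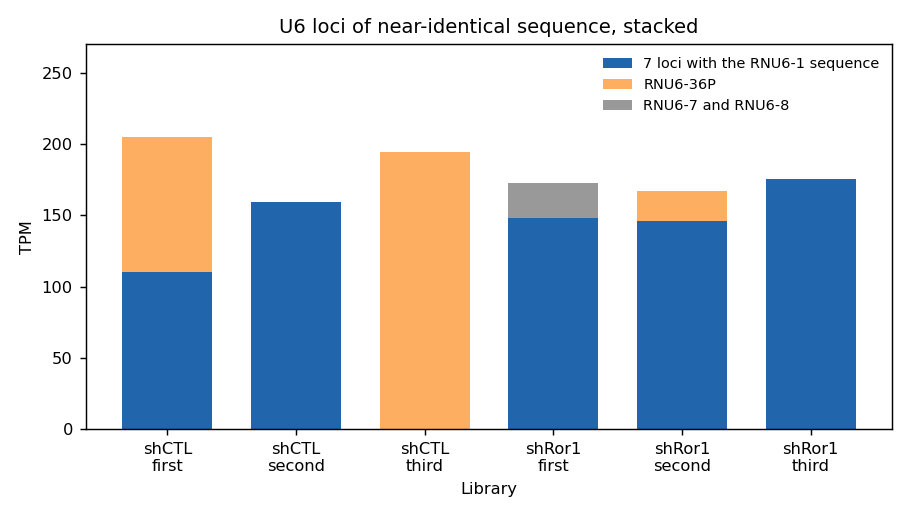
TPM (y axis, linear from 0) of 10 near-identical U6 loci in each library (x axis), stacked as the 7 loci with the RNU6-1 sequence, RNU6-36P, and RNU6-7 with RNU6-8. The height of the stack runs from 159 to 205 TPM, while RNU6-36P alone runs from 0 to 194.

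Away from this set, RNU6-312P, which carries 15 substitutions against RNU6-1, was the U6 copy with the smallest p. It was at 2.18, 2.77 and 0.95 TPM (shCTL) and 4.37, 5.23 and 8.43 TPM (shRor1), with no overlap of the groups. Its log2 fold change was 1.25 (SE 0.29, unadjusted p = 0.00313, adjusted p = 0.984, limma), and the exact two-sided permutation test gave p = 0.1, the smallest value that 3 against 3 libraries allow. It lies on the strand of PPIL3 and overlaps an exon of that gene, a cyclophilin with 56.9 TPM and a log2 fold change of 0.15. RNU6-26P, in an intron of DCBLD2, was the other U6 copy under an unadjusted p of 0.05, at 2.18, 3.73 and 1.90 TPM (shCTL) and 4.77, 5.81 and 3.37 TPM (shRor1).

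The minor and other spliceosomal members were low. RNU6ATAC, the catalytic RNA of the minor spliceosome, was at 5.99, 1.86 and 3.73 TPM (shCTL) and 3.75, 2.28 and 5.89 TPM (shRor1), with groups that overlapped almost fully. RNU5A-1 was at 2.25, 1.69 and 1.68 TPM (shCTL) and 2.21, 1.03 and 0 TPM (shRor1). RNU5E-1, a variant of the U5 RNA that aligns exon ends, was at 1.71, 1.79 and 1.60 TPM (shCTL) and 0.39, 1.47 and 0.57 TPM (shRor1). All 3 shRor1 values of RNU5E-1 were below shCTL (log2 fold change -0.62, SE 0.22, unadjusted p = 0.0235, adjusted p = 0.984, limma).

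U7 guides histone mRNA processing, and its members were all pseudogene copies. RNU7-111P was the highest, at 7.11, 5.53 and 6.64 TPM (shCTL) and 4.45, 6.50 and 9.18 TPM (shRor1). RNU7-3P (chr6:149838092-149838153, plus strand, opposite PPIL4) had the smallest p of all members. It was at 1.02, 1.11 and 1.33 TPM in shCTL and listed at 0 in all 3 shRor1 libraries (unadjusted p = 4.45e-05, adjusted p = 0.369, limma). It is one of the loci that entered through 1 group, so its p is not independent of the threshold and is no support for a difference. RNU7-163P, in an intron of IDI1, was at 1.95, 2.13 and 2.55 TPM (shCTL) and 0, 1.56 and 1.26 TPM (shRor1).

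At these lengths TPM moved in steps. Among annotated short loci of 62 bases the commonest value above 0 was 1.02, 1.11 and 1.33 TPM (shCTL) and 1.11, 1.63 and 1.31 TPM (shRor1), so each shCTL value of RNU7-3P was a single step. Among loci of 107 bases, the length of U6, the step was 0.36 to 0.58 TPM, and 86.9% of 282 values up to 10 steps were whole multiples of it within 0.05 of a step. The threshold of 1 TPM was therefore reached by 1 step in loci of 62 bases and by 2 or 3 in loci of 107 bases. Steps at the other lengths of U6 and U7 members were not read.
RNU7-3P: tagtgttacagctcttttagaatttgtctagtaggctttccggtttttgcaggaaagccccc

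Y RNA members were also pseudogene copies only. RNY4P10, in an intron of RXRB on the opposite strand, was at 3.50, 2.86 and 4.01 TPM (shCTL) and 1.92, 0.70 and 3.95 TPM (shRor1), with overlap. RNY5P8 and RNY1P6 stayed at or under 2.03 TPM and were each listed at 0 in at least 1 library.

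For 7SL, the RNA of the signal recognition particle, the gene RN7SL1 was not analysed here, and the 7SL sums and shares leave it out. Among the 7SL loci analysed, RN7SL2 was the highest in every library. This gene was at 565, 1017 and 246 TPM in shCTL (609 ± 388, SD, n = 3) and at 244, 1097 and 753 TPM in shRor1 (698 ± 429). High and low libraries occurred in both groups, with a range of 4.5-fold, and the second shCTL library was not the highest. The log2 fold change was 0.17 (SE 0.64, adjusted p = 0.987, limma), with an exact two-sided permutation p of 0.8, and leaving out single libraries moved it to between -0.37 and 0.80.

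RN7SL3, the neighbouring 7SL gene, stood at a far lower level, 6.42, 11.5 and 3.15 TPM in shCTL and 3.72, 10.3 and 5.81 TPM in shRor1. As in RN7SL2, the second library of each group was its highest, and the third shCTL and the first shRor1 library were the lowest. RN7SL4P was at 1.63, 4.35 and 1.35 TPM (shCTL) and 0.89, 6.12 and 3.99 TPM (shRor1). Over the 6 libraries the correlation with RN7SL2 on the log2(TPM + 1) scale was 0.947 for RN7SL3 and 0.934 for RN7SL4P. The identity of these 2 sequences to RN7SL2 was 96.3 and 86.8%. For RN7SL5P, with an identity of 88.0%, the correlation was -0.013. Across the 208 other 7SL members such a correlation exceeded 0.8 in 3 of 26 with an identity of at least 75%, and in 5 of 182 below that, with medians of 0.21 and -0.08. Libraries, depth and read sharing are common to these loci, and the correlations are given as a description.

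The other 208 7SL members were low and comparatively even. Their mean levels went up to 9.13 TPM (RN7SL670P), and 100 of the 208 varied less than 2-fold from the lowest to the highest library. RN7SL670P was at 7.70, 9.03 and 8.42 TPM (shCTL) and 8.66, 9.47 and 11.5 TPM (shRor1). RN7SL373P, the next highest, was at 8.44, 7.83 and 8.01 TPM (shCTL) and 8.32, 7.19 and 8.32 TPM (shRor1), with a log2 fold change of -0.03 (SE 0.11).

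In sequence these members differed from the 7SL loci that did not pass. The median identity to RN7SL2 was 55.6% in the 208 members and 79.0% in the 638 loci outside. Only 31 of the 209 members shared any word of 12 bases with the middle of RN7SL2 (bases 100 to 198), against 555 of the 638 others. Conversely, 151 of 209 members held at least 1 word of 12 bases together with its reverse complement, against 108 of 638. The share that passed was 78.4% of the 190 loci without the middle and with such inverted words, 40.8% of 71 with neither, 5.61% of 517 with the middle alone and 2.9% of 69 with both. Alu repeats also lack that middle and occur within many longer transcripts. Whether reads at these loci came from the annotated copy was not tested.

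**Figure D4:**
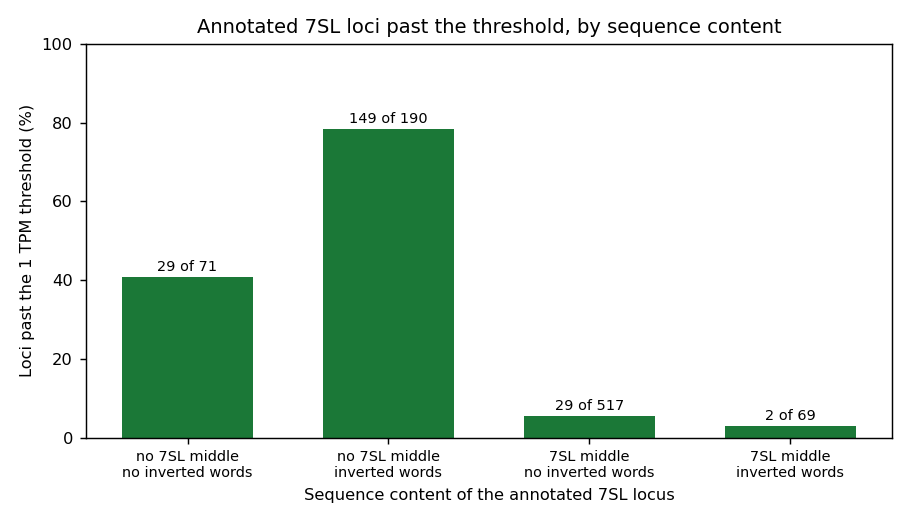
Share of annotated 7SL loci past 1 TPM in at least 3 libraries (y axis, percent) by whether the locus holds words of 12 bases from the middle of RN7SL2 and words with their reverse complement in the same locus (x axis). The bars stand at 40.8, 78.4, 5.61 and 2.9%, with numbers of loci above them.

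By position, 103 of the 266 members lay on the strand of an annotated longer gene, 92 of these in its introns and 11 over an exon, a further 80 lay only opposite such a gene, and 83 lay in none. The share of loci that passed was 8.9, 10.0 and 7.42% in these 3 positions, and median log2 fold changes of the members were 0.11, 0.09 and 0.08. For 7SL loci alone the shares were 21.7, 33.7 and 23.2%. Among 339 7SL loci on the strand of a host gene with a value, the level of the locus and that of its host had a rank correlation of 0.335, and 30.0% of those in hosts of 50 TPM or more passed, against 17.2% in hosts under 1 TPM. The fold changes of 54 such members and their hosts had a rank correlation of -0.07. These loci share libraries and annotation, and the values are a description.

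Between shCTL and shRor1, no member was called at an adjusted p below 0.05 by limma, and neither was any of the 16554 genes (0.0%). Their smallest adjusted p was 0.369. With edgeR, the paper reported AGR2 and an uncharacterized gene as different in this comparison, and neither is a member. The absence of calls over all genes thus holds for the limma fit on TPM. With no adjustment, 26 members had a p below 0.05, 21 higher in shRor1 (7.89% of members, 2.31% of all genes) and 5 lower (1.88% of members, 0.544% of all genes). These counts include RN7SL661P (higher) and RNU7-3P (lower), which each entered through 1 group alone. With quantile normalization the split was 13 higher and 8 lower (7.89% of members in both directions together, 2.24% of all genes). Groups did not overlap for 27 members higher in shRor1 and 7 lower, which is 10.2 and 2.63% of members against 6.48 and 1.3% of all genes (7.78% in both directions), and with median ratio scaling these counts were 21 and 9 (7.89 and 3.38% of members). Over all genes that scaling turned the balance, to 3.07% higher and 3.9% lower, which it did not do for the members. Without the first shRor1 library, members without overlap made up 23.3% against 29.3% of all genes, and without the third shCTL library 21.4% against 22.1%. The members' median log2 fold change was 0.10 against 0.05 over all genes, and 63.5% of members against 67.0% of all genes lay above 0. Because the members were chosen with results known and many share reads, these shares are a description.

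19 of the 21 higher members and 2 of the 5 lower ones were 7SL copies, a class that made up 209 of all 266 members. RN7SL360P was at 1.15, 1.51 and 1.29 TPM (shCTL) and 2.29, 3.22 and 2.57 TPM (shRor1) (log2 fold change 0.67, SE 0.15, unadjusted p = 0.00213, adjusted p = 0.984, limma). RN7SL765P was at 2.28, 2.45 and 2.76 TPM (shCTL) and 3.78, 3.78 and 4.59 TPM (shRor1). RN7SL729P was at 3.13, 3.55 and 3.73 TPM (shCTL) and 5.78, 4.82 and 4.89 TPM (shRor1). In each of these 3 copies every shRor1 library was above every shCTL library.

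RN7SL699P and RN7SL470P showed the same order, with log2 fold changes of 0.40 (SE 0.12) and 0.69 (SE 0.22). RN7SL470P lies in an intron of PCBP1-AS1, whose own log2 fold change was 0.19, whereas RN7SL360P, RN7SL765P, RN7SL729P and RN7SL699P lie in no annotated longer gene. All 5 lack the middle of RN7SL2, and their identity to RN7SL2 was 52.4 to 57.2%. That is no trait of the higher copies alone. Of the 209 7SL members 178 lack the middle, and the median identity was 55.6%. The lower copies RN7SL99P and RN7SL367P lack it too, with identities of 55.6 and 54.7%.

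In the other direction, RN7SL99P was at 4.65, 4.38 and 3.79 TPM (shCTL) and 2.19, 1.99 and 3.22 TPM (shRor1) (log2 fold change -0.62, SE 0.16, unadjusted p = 0.00607, adjusted p = 0.984, limma). It lies in an intron of ATF7IP2, on the same strand, and that gene had a log2 fold change of 0.05. RN7SL367P was at 6.38, 6.76 and 6.70 TPM (shCTL) and 5.30, 5.84 and 4.73 TPM (shRor1). RNU7-3P, RNU5E-1 and RNU7-163P were the other 3 lower members. For RN7SL99P, RN7SL367P and the 5 higher copies above, the exact permutation test gave p = 0.1.

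**Figure D5:**
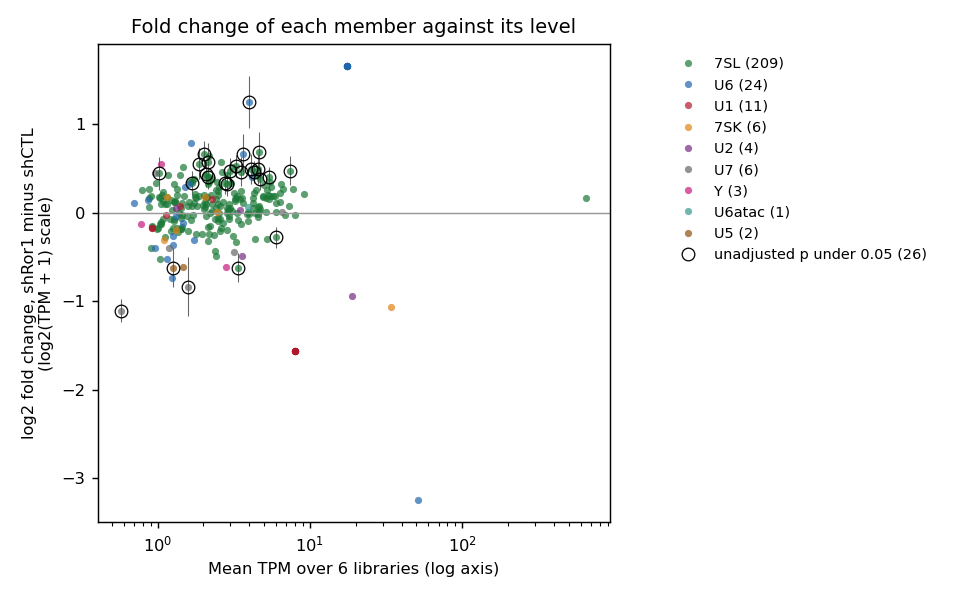
Log2 fold change of each of the 266 members on the log2(TPM + 1) scale (y axis, shRor1 minus shCTL) against its mean TPM (x axis, logarithmic), coloured by class, with rings and SE bars on the 26 members with an unadjusted p below 0.05. The ringed members lie at low levels, and the points farthest from 0 (RNU6-36P, the loci with the RNU6-1 sequence, the U1 copies) are not ringed.

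The size of the error followed the same division. The median SE of a log2 fold change was 0.20 over members and 0.13 over all genes, and 21 members had an SE above 0.5, among them RN7SL2, RN7SK, RNU2-2P, RNU1-1 and RNU6-36P.

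The protein partners of these RNAs were read from a list of 129 genes, all matched, of which 128 were tested. None was called, and none had an unadjusted p below 0.05 in either direction in limma (472 of 16554 genes, 2.85%, did). Log2 fold changes were above 0 in 50 and below 0 in 78, with a median of -0.03. Over all genes 67.0% lay above 0 with a median of 0.05, and with median ratio scaling that median was -0.02. Signs near 0 thus depend on the scaling, and the counts by partner group were not tested. The Sm and LSm ring proteins had 14 of 16 below 0 and the U4/U6 and U5 proteins 15 of 16, while 7SK, SRP and transcription and 3' processing factors had 5 of 7, 5 of 8 and 24 of 38 above 0.

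The smallest partner p was that of SNRPB, an Sm core protein, at 514, 488 and 511 TPM (shCTL) and 487, 439 and 430 TPM (shRor1) (log2 fold change -0.16, SE 0.07, unadjusted p = 0.0613, adjusted p = 0.984, limma). The groups did not overlap for SNRPB, nor for LSM8, the U6-binding ring subunit, at 82.8, 82.3 and 79.4 TPM (shCTL) and 77.2, 71.0 and 73.4 TPM (shRor1). These were the only 2 of the 128 tested partners without overlap. Over all genes 1.3% were lower without overlap, and 7.78% were without overlap in both directions together. SRP9, a signal recognition particle protein that also binds Alu RNA, was at 253, 222 and 234 TPM (shCTL) and 242, 301 and 273 TPM (shRor1) (log2 fold change 0.20, SE 0.10). Of the proteins that bind 7SK and Y RNA, LARP7 had a log2 fold change of 0.07 (SE 0.07), CDK9 of -0.14 (SE 0.10), SSB, the La protein, of 0.08 (SE 0.08) and RO60 of 0.01 (SE 0.11).

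SNRNP70 of the U1 particle was at 314, 253 and 330 TPM (shCTL) and 283, 254 and 301 TPM (shRor1), with overlap of the groups. WDR77 and PRMT5, which methylate Sm proteins during assembly, had log2 fold changes of -0.23 (SE 0.11) and -0.17 (SE 0.10). SF3B4 and SF3B1 of the U2 particle had -0.15 (SE 0.08) and 0.11 (SE 0.08), and SNRNP25 and SNRNP35 of the minor spliceosome -0.13 (SE 0.07) and 0.13 (SE 0.10). PRPF31 and USP39, factors of the tri-snRNP that joins U4/U6 with U5, had -0.13 (SE 0.09) and -0.07 (SE 0.08), and SNRPC of the U1 particle -0.07 (SE 0.09). BDP1, an RNA polymerase III initiation factor, INTS3 of the Integrator complex that cuts snRNA ends, and SRP54, the GTPase of the signal recognition particle, had 0.21 (SE 0.11), 0.18 (SE 0.11) and 0.09 (SE 0.08).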

How the data were processed

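RNA-seq of 3 shCTL and 3 shRor1 libraries of MDA-MB231 cells was analysed. Per the labels and the methods of the study, single reads of 50 bases were mapped to GRCh37 with STAR (Ensembl 73) and gene abundances were estimated with RSEM 1.2.5. The authors deposited TPM with 2 decimals, and each column sums to about 1000000. TPM keeps no depth, so no counting interval was given, and the count model of the authors (edgeR) could not be fitted. The effective length setting is not given in the sources used here.

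Symbols were matched for 55022 of 57445 identifiers. Genes past 1 TPM in no fewer than 3 libraries were fitted on log2(TPM + 1) with limma 3.58.1 in R 4.3.3 (empirical Bayes with a mean-variance trend, Benjamini-Hochberg adjustment at 0.05 over 16554 genes). All fold changes are on that scale, which understates those of low loci. Tested on simulated data for this comparison (16554 genes, 10 runs), limma recovered 71.4% of genes at a log2 fold change of 1 and 95.6% at 2. The 200 changed genes of a run were drawn from all tested genes and shifted on the log2(TPM + 1) scale. Recovery among the members alone was not measured. It can be lower, as their median SE was 0.20 against 0.13 over all genes. Copies were aligned globally to the parent gene of their class with Biopython 1.88. Identity is the share of alignment positions that match, with gaps counted as positions. Genes overlapping a locus came from GENCODE 44 mapped to GRCh37, small RNA genes excluded. Sequences of the U6 and 7SL loci are not reported here.

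The members and lists were chosen with earlier results of these data known, and the word search in 7SL loci and the sum over 10 U6 loci were chosen after seeing the values. Named are the true genes by symbol, the highest loci of each class, the members with the smallest p and the largest fold change in each direction, those next to the threshold, their host genes, and 2 partner genes per group. RNVU1-18, RN7SL4P, RN7SL661P, the ribosomal and U3 genes, CTD-2328D6.1, ENSG00000225840, AP000318.1 and AC079949.1 were named for their values. RN7SL5P was named for its identity to RN7SL2. The exact permutation test was two-sided. Alternatives were other filters, scalings, pseudocounts and variance models, and each library left out.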

Additional observations from a re-analysis of the deposited data

How the results depend on the processing

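The alternatives were 14 refits, of which 6 left out 1 library each. No member was called in any of them, and over all genes the count stayed at 0 except for 1 gene called without the third shRor1 library (range 0 to 1 over the libraries left out). Members at an unadjusted p below 0.05 numbered 26, with 78 of 1268 loci (6.15%, all genes 3.49%) when no expression filter was used, 2 of 44 (4.55%, all genes 2.04%) at a mean of at least 5 TPM, where fewer loci are tested, and 15 to 31 with a library left out, the lowest without the first shCTL library (5.64%, all genes 1.75%) and the highest without the third (11.7%, all genes 4.03%). Without the first shRor1 library the shares were 10.9% and 10.4%. Partner genes at that p numbered 0, but 1 without a filter, 4 with median ratio scaling, 1 with TPM rescaled to protein-coding genes, and 0 to 17 with a library left out, the highest without the first shRor1 library, where 1720 of all genes passed. Members without overlap of the groups numbered 34 (12.8%, all genes 7.78%), and 50 to 71 with a library left out, where fewer libraries have to be separated (71 without the second shCTL library, 57 without the third, and 62, 66 and 56 without each shRor1 library in column order). Those shares were 18.8, 26.7 and 21.4% without each shCTL library (all genes 13.0, 13.7 and 22.1%) and 23.3, 24.8 and 21.1% without each shRor1 library (all genes 29.3, 14.2 and 13.7%), so that without the third shCTL or the first shRor1 library the members' share was below that of all genes. Causes of these shifts were otherwise not tested.

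The U6 sum of shRor1 minus shCTL was -16.5 TPM over members, 7.53 over all U6 loci and 36.6 over symbols without a pseudogene ending, and for U7 it was -3.32 over members and 0.56 over the single U7 gene. Members inside a longer gene numbered 103 on the same strand and 183 on either strand. Over 22 single members and 295 refits, the direction held in 283. It turned for RN7SL2 (range over libraries left out -0.37 to 0.80) without the third shCTL library (-0.37), the second shRor1 library (-0.28) or the third (-0.01), for RN7SL3 (-0.03 in the whole set, range -0.43 to 0.36) without the second shCTL library (0.36), the first shRor1 library (0.27) or the third (0.01), for RN7SK (0.32, range -1.82 to 0.32) and RNU2-2P (0.36, range -1.88 to 0.36) without the second shCTL library, and for RNU6ATAC (0.06 in the whole set, range -0.28 to 0.37) with quantile normalization (-0.031), median ratio scaling (-0.002), without the second shCTL library (-0.28) and without the third shRor1 library (-0.21). The adjusted p of RNU7-3P ran from 0.104 to 1.0. No paired analysis was possible because no replicate number stands in the column headers, and the planned replicate block was not run.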
